A study of Mus musculus with 12 samples.

Results

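The primitive endoderm genes followed here, 10 in all, were measured in differentiating mouse ES cells that carry a doxycycline-inducible *Xist* gene: *Gata4*, *Gata6*, *Sox17*, *Sox7*, *Foxa2*, *Pdgfra*, *Dab2*, *Lama1*, *Cubn* and *Sparc*. They were taken by symbol from RNA-seq count tables of 24627 genes, and all 10 were found. None of the 10 is X-linked. Of the 24627 genes, 13191 passed the filter of at least 1 CPM (counts scaled to library size) in at least 6 of the 12 libraries, all 10 of these among them, with *Sox7* passing in exactly 6.

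All lines derive from male J1 (XY) ES cells in which the endogenous *Xist* promoter was replaced by a tetracycline-responsive one. *Xist* FL makes the full-length RNA, *Xist* ΔA lacks the A repeat, and *Xist* ΔB+C lacks the B and C repeats. The ΔB+C line is a single clone made from the *Xist* FL line by CRISPR/Cas9. *Xist* ΔA is a line of earlier origin, so line and clone cannot be told apart. Each line was grown without feeder cells and differentiated for 2 days by withdrawing LIF from serum medium, with doxycycline at 1.5 µg/ml (DOX) or without it (noDOX), which gave 6 groups of 2 libraries. Deposited totals ran from 31337490 to 41240470 counts per library, so that 3 counts correspond to 0.0727 to 0.0957 CPM. *Xist* itself stood at 2.44 to 8.38 CPM in the 6 noDOX libraries and at 557 to 1830 CPM in the 6 DOX libraries. Replicate 2 of *Xist* ΔB+C DOX was made from 100 ng of RNA and the other 11 libraries from 1000 ng. Values without it are given beside many, but not all, of the results for *Xist* ΔB+C DOX. The study's text calls the replicates biological duplicates.

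The primitive endoderm is the second lineage that separates from the inner cell mass, next to the epiblast that ES cells resemble. FGF signalling from epiblast cells promotes the primitive endoderm fate. Among its factors GATA6 comes first and is followed by PDGFRA, SOX17, GATA4 and SOX7 in turn. The resulting cells form the visceral endoderm, which takes up nutrients through endocytic receptors, and the parietal endoderm, which secretes a thick laminin- and collagen IV-rich basement membrane. ES cells give rise to a few such cells when they leave self-renewal. In bulk RNA, a change in the number of such cells and a change in the RNA made per cell cannot be told apart.

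Promoter sequence was available for 5 of the 10 genes (8 start-site windows of 300 bases in RefSeq, GRCm38.p6, each running from 250 bases before to 50 after a start). GATA4 and GATA6 bind GATA elements, so the word AGATAA was searched on both strands, together with the words AGATAG, and TGATAA as well as TGATAG. They occurred in 2 of the 8 windows, while 29.8% of 32851 windows of the same length held one. The windows below are shown for *Dab2*, *Foxa2* and *Sparc*, which are among the genes that passed a test, and for each gene the window nearest its annotated start is printed. Capitals mark the GATA words, all letters are given 5′ to 3′ along the gene's strand, and a match describes the letters only. The *Dab2* window (chr15:6299539-6299838, plus strand) covers the annotated gene start and holds TGATAA from base 72 and AGATAA on the opposite strand from base 265. The *Foxa2* window (chr2:148046920-148047219, minus strand) covers the annotated gene start and holds none of the words, while of its other windows 1, at a start 1505 bases inside the gene, holds AGATAA from base 68. The *Sparc* window (chr11:55420031-55420330, minus strand) belongs to a start 3103 bases inside the gene and holds none of the words.
Dab2: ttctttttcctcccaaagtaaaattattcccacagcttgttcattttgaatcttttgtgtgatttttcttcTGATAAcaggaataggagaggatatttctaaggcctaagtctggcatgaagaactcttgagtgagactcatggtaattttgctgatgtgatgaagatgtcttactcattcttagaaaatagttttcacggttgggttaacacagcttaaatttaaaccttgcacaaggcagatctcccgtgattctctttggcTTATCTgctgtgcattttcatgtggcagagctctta
Foxa2: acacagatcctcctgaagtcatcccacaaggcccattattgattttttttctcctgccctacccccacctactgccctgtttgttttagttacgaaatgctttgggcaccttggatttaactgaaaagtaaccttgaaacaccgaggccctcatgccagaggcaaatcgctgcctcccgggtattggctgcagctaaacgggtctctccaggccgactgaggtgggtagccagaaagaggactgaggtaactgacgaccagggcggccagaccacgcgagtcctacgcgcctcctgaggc
Sparc: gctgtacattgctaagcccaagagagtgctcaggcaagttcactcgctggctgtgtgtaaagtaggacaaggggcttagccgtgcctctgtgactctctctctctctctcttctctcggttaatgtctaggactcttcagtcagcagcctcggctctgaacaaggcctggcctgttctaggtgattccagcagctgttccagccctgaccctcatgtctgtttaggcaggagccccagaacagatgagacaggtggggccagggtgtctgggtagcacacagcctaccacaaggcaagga

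Per kilobase of exon, the 10 genes covered a wide range of levels. *Sparc*, a collagen-binding matrix glycoprotein that many cell types make, stood far above the rest at a mean of 99.2 CPM per kb over the 12 libraries. *Lama1*, the α1 chain of the first embryonic laminin, followed at 2.64 CPM per kb and *Dab2*, an endocytic adaptor, at 2.51. The order then ran through *Gata4* (1.06), *Sox17* (0.819), *Foxa2* (0.741), *Sox7* (0.328), *Gata6* (0.293), *Cubn* (0.276) and *Pdgfra* (0.178 CPM per kb). Lengths came from all exons of the annotation, so the neighbours *Lama1* and *Dab2*, or *Gata6* and *Cubn*, should not be ranked. Of 19 visceral endoderm and endocytosis genes, 12 passed the filter, with *Apoe* at 242 to 485 CPM and *Lrp2* at 161 to 313. The secreted-protein genes *Ttr*, *Afp*, *Apoa1*, *Apoa4* and *Fgb* stayed under 1 CPM in all 12 libraries, as did *Cer1* of the anterior visceral endoderm. *Pou5f1*, which marks the pluripotent epiblast, read 1170 to 1770 CPM.

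The genes lie on autosomes (GENCODE vM21, GRCm38/mm10), *Gata4* (63198922 to 63271692, minus strand) and *Sox7* (63943673 to 63950732, plus strand) both on chromosome 14. *Foxa2* (148042877 to 148046969) and *Cubn* (13276338 to 13491813) are on the minus strand of chromosome 2. *Sox17* spans 4490931 to 4497354 on chromosome 1 (minus), *Pdgfra* 75152292 to 75198215 on chromosome 5 (plus) and *Sparc* 55394500 to 55423183 on chromosome 11 (minus). *Dab2* spans 6299788 to 6440712 on chromosome 15 (plus), *Lama1* 67697259 to 67822647 on chromosome 17 (plus), and *Gata6* is on chromosome 18. Counts were made over exons of whole genes.

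**Figure D1:**
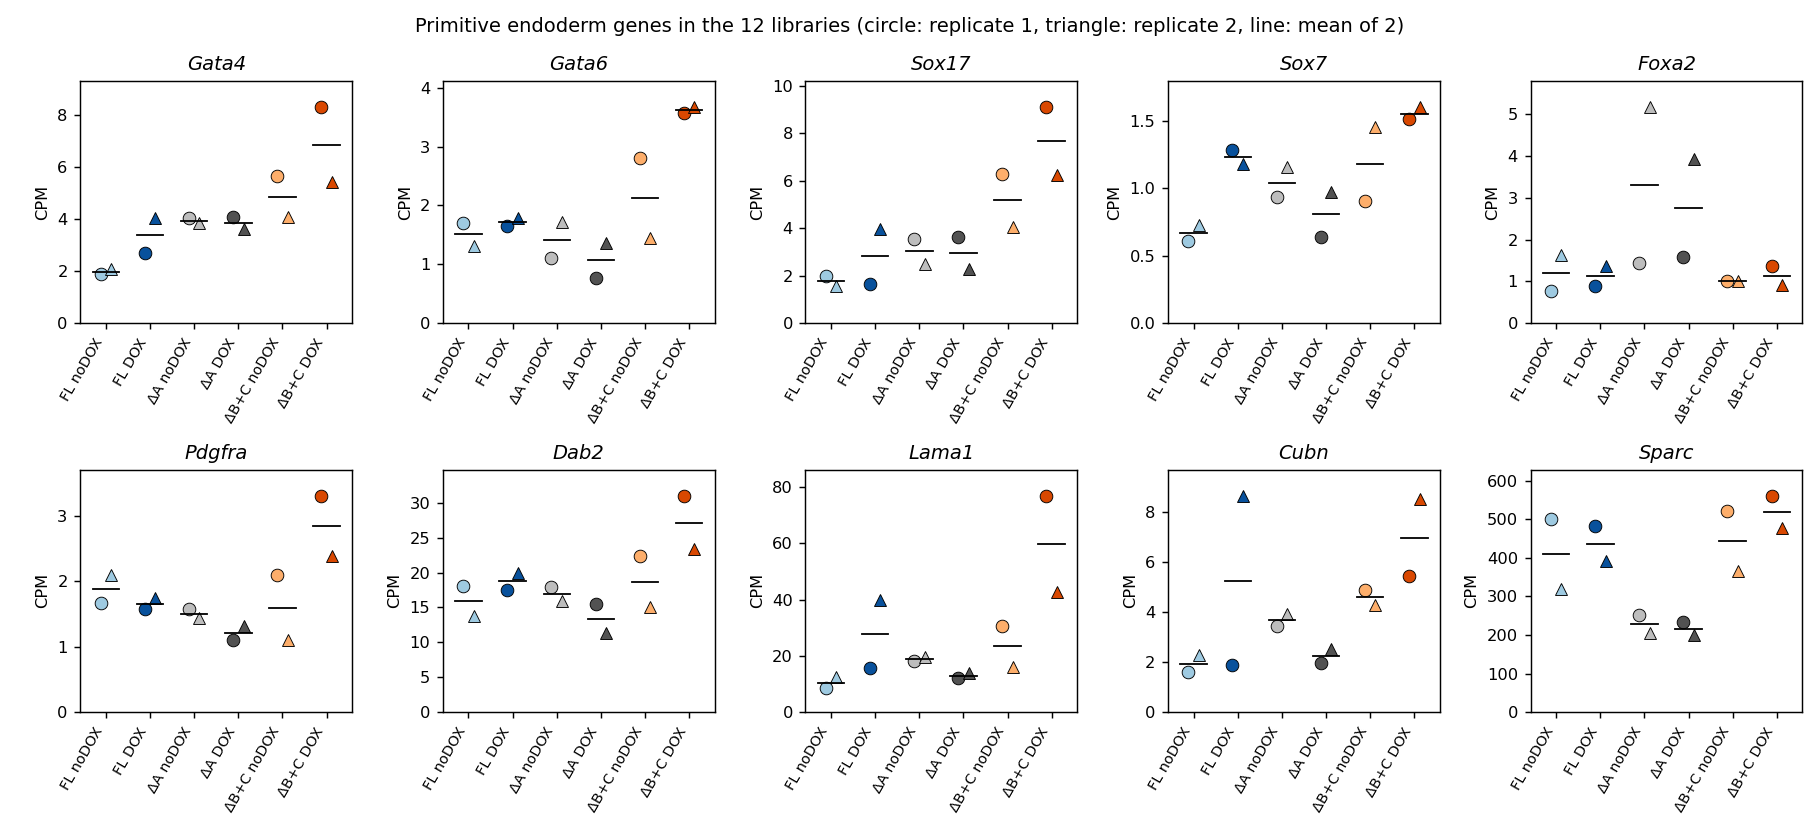
Levels of the 10 primitive endoderm genes in each of the 12 libraries, in CPM on a linear axis that starts at 0 and differs between panels; circles are replicate 1, triangles replicate 2 and lines the mean of 2. *Xist* ΔB+C DOX has the highest mean of the 6 groups for every gene but *Foxa2*, which is highest in *Xist* ΔA.

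The zinc-finger factor *Gata4* was lowest in *Xist* FL noDOX, at 1.89 and 2.08 CPM, and read 2.71 and 4.06 in *Xist* FL DOX. It read 4.05 and 3.84 CPM in *Xist* ΔA noDOX and 4.08 and 3.61 in *Xist* ΔA DOX. In *Xist* ΔB+C the values were 5.67 and 4.07 CPM without DOX and 8.31 and 5.42 with DOX. Both *Xist* FL noDOX libraries thus lay below the other 10, and 6.1% of all genes tested had these 2 libraries wholly below or above the rest. Its relative *Gata6*, the earliest of the factors, was at 1.70 and 1.32 CPM in *Xist* FL noDOX, 1.66 and 1.78 in *Xist* FL DOX, 1.11 and 1.72 in *Xist* ΔA noDOX and 0.766 and 1.37 in *Xist* ΔA DOX. In *Xist* ΔB+C it read 2.80 and 1.45 CPM without DOX and 3.57 and 3.67 with DOX, the last pair above every other library, a pair that stood wholly above or below the rest for 9.23% of all genes tested.

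*Sox17*, an HMG-box factor of extraembryonic and definitive endoderm, gave 1.99 and 1.57 CPM in *Xist* FL noDOX, 1.66 and 3.98 in *Xist* FL DOX, 3.56 and 2.5 in *Xist* ΔA noDOX and 3.63 and 2.28 in *Xist* ΔA DOX. It gave 6.28 and 4.07 CPM in *Xist* ΔB+C noDOX and 9.11 and 6.25 in *Xist* ΔB+C DOX. All 4 *Xist* ΔB+C libraries lay above the other 8, which held for 1 of the 10 genes, and 2.06% of all genes tested had the 4 wholly above or below. *Sox7*, a related factor that follows *Sox17*, was near the detection filter throughout, between 0.606 CPM in replicate 1 of *Xist* FL noDOX and 1.60 CPM in replicate 2 of *Xist* ΔB+C DOX. The forkhead factor *Foxa2*, shared by visceral and definitive endoderm, behaved differently from all of these. It read 1.45 and 5.16 CPM in *Xist* ΔA noDOX and 1.58 and 3.92 in *Xist* ΔA DOX, against 0.776 to 1.63 in the 8 libraries of the other 2 lines. Its 2 high values were both replicate 2 of *Xist* ΔA.

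*Pdgfra*, the receptor for PDGF-A on primitive endoderm cells, ranged from 1.11 CPM to 3.31 CPM, the latter in replicate 1 of *Xist* ΔB+C DOX. *Dab2*, which links cargo receptors to clathrin, read 18.0 and 13.7 CPM in *Xist* FL noDOX, 17.5 and 20.0 in *Xist* FL DOX, 17.9 and 15.9 in *Xist* ΔA noDOX and 15.5 and 11.4 in *Xist* ΔA DOX. It read 22.4 and 15.0 CPM in *Xist* ΔB+C noDOX and 31.0 and 23.3 in *Xist* ΔB+C DOX, the 2 highest of the 12. These 2 libraries, 1 of them made from 100 ng, stood wholly above or below the other 10 for 5 of the 10 genes. Those were *Gata6*, *Sox7*, *Pdgfra*, *Dab2* and *Lama1*, and the same held for 9.23% of all genes tested. *Cubn*, the large endocytic receptor cubilin, was at 1.60 and 2.27 CPM in *Xist* FL noDOX and at 1.87 and 8.66 in *Xist* FL DOX, the latter its highest value. In *Xist* ΔA it lay between 1.98 and 3.94 CPM and in *Xist* ΔB+C between 4.28 and 8.52.

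Of the matrix genes, *Lama1* read 8.51 and 12.5 CPM in *Xist* FL noDOX and 15.7 and 39.9 in *Xist* FL DOX. It read 18.2 and 19.7 CPM in *Xist* ΔA noDOX and 12.1 and 13.9 in *Xist* ΔA DOX. In *Xist* ΔB+C it read 30.6 and 16.2 CPM without DOX and 77.0 and 42.7 with DOX. *Lama1* had the widest span of the 10, with the highest library 9.04 times the lowest. *Sparc* was lowest in *Xist* ΔA, at 251 and 206 CPM without DOX and 233 and 200 with DOX. It read 500 and 319 CPM in *Xist* FL noDOX, 482 and 392 in *Xist* FL DOX, 521 and 366 in *Xist* ΔB+C noDOX and 561 and 477 in *Xist* ΔB+C DOX. The 4 *Xist* ΔA libraries therefore lay below all 8 of the others, and 17.3% of all genes tested had these 4 wholly below or above.

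To ask whether inducing *Xist* moved these autosomal genes, DOX was compared with noDOX within each line by edgeR's quasi-likelihood test over all 13191 genes (Benjamini–Hochberg adjusted p under 0.05). In *Xist* FL none of the 10 genes passed, where 1.24% of all genes did. Of the 10, 4 had an unadjusted p under 0.05, limma-voom called 0 (1.27% of all genes) and DESeq2 called 1, *Lama1* (4.21% of all genes). The log2 (fold change) was positive for 8 of the 10, with a median of 0.45 against -0.01 over all genes tested. *Lama1* averaged 10.5 ± 2.81 CPM (SD, n = 2) without DOX and 27.8 ± 17.1 with DOX, a log2 (fold change) of 1.41 ± 0.46 (SE, edgeR, adjusted p = 0.223). *Cubn* gave 1.45 ± 0.58 (adjusted p = 0.316), *Sox7* 0.88 ± 0.33 (adjusted p = 0.274) and *Gata4* 0.77 ± 0.28 (adjusted p = 0.263) by the same test. These 4 were higher with DOX in both same-numbered pairs, *Pdgfra* was lower in both, and the other 5 went opposite ways.

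Replicate 2 of *Xist* FL DOX carried much of this difference. Without it, the log2 (fold change) was 0.58 for *Lama1*, -0.05 for *Cubn* and -0.11 for *Sox17*, while *Gata4* kept 0.45. With all libraries, *Sox17* had 0.66 ± 0.44. With the replicate number as a block in the model, none of the 10 passed in *Xist* FL, where 13.9% of all genes did.

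In *Xist* ΔA, whose RNA lacks the repeat needed for silencing, none of the 10 passed, nor did any have an unadjusted p under 0.05 or a call by DESeq2 (0.0303% of all genes) or limma-voom (0.00758%), and in edgeR 0.00758% of all genes passed. The log2 (fold change) was negative for 8 of the 10, with a median of -0.28 (0.00 over all genes tested). *Lama1* averaged 19 ± 1.04 CPM (SD, n = 2) without DOX and 13.0 ± 1.29 with DOX, and its log2 (fold change) was -0.51 ± 0.46. *Cubn* gave -0.68 ± 0.58 and *Dab2* -0.29 ± 0.24. Within same-numbered pairs, *Gata6*, *Sox7*, *Pdgfra*, *Dab2*, *Lama1* and *Cubn* were lower with DOX in both, and no gene was higher in both. *Gata4* and *Sox17* stood at 0.00 ± 0.27 and 0.00 ± 0.43. With the block none of the 10 passed either, against 0.0227% of all genes.

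In *Xist* ΔB+C all 10 genes had a positive log2 (fold change), with a median of 0.52 against 0.00 over all genes tested, and 9 of the 10 (all but *Foxa2*) were higher with DOX in both same-numbered pairs. None passed edgeR's test, where 2.94% of all genes did. Of the 10, 2 had an unadjusted p under 0.05, limma-voom called 0 (2.99% of all genes) and DESeq2 called 1, *Lama1* (8.44%). *Lama1* averaged 23.4 ± 10.2 CPM (SD, n = 2) without DOX and 59.8 ± 24.2 with DOX, a log2 (fold change) of 1.32 ± 0.46 (SE, edgeR, adjusted p = 0.161). It was 2.47 times higher in pair 1 and 2.56 times in pair 2. *Pdgfra* had a log2 (fold change) of 0.80 ± 0.31 (adjusted p = 0.206), *Gata6* 0.73 ± 0.37 (adjusted p = 0.325) and *Gata4* 0.46 ± 0.27 (adjusted p = 0.393) in the same test. Groups did not overlap for 6 of the 10, *Gata6*, *Sox7*, *Pdgfra*, *Dab2*, *Lama1* and *Cubn*, nor for 43.1% of all genes tested.

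*Dab2* was called once the replicate number was a block in the model, which the pairing of the libraries warranted: 18.7 ± 5.30 CPM (SD, n = 2) without DOX and 27.1 ± 5.46 with DOX, log2 (fold change) 0.51 ± 0.15, adjusted p = 0.0329 against 0.297 without the block. With the block 21.9% of all genes passed, so that 1 of 10 is below the background. Leaving out the library made from 100 ng ended the call, with a log2 (fold change) of 0.57 ± 0.19 and an adjusted p of 0.0947 in edgeR with the block, an alternative chosen after seeing the data. Without that library and without the block, the 9 genes still tested were all positive and none was called, with *Lama1* at 1.68, *Pdgfra* at 1.00, *Gata4* at 0.73, *Gata6* at 0.71 and *Cubn* at 0.21.

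**Figure D2:**
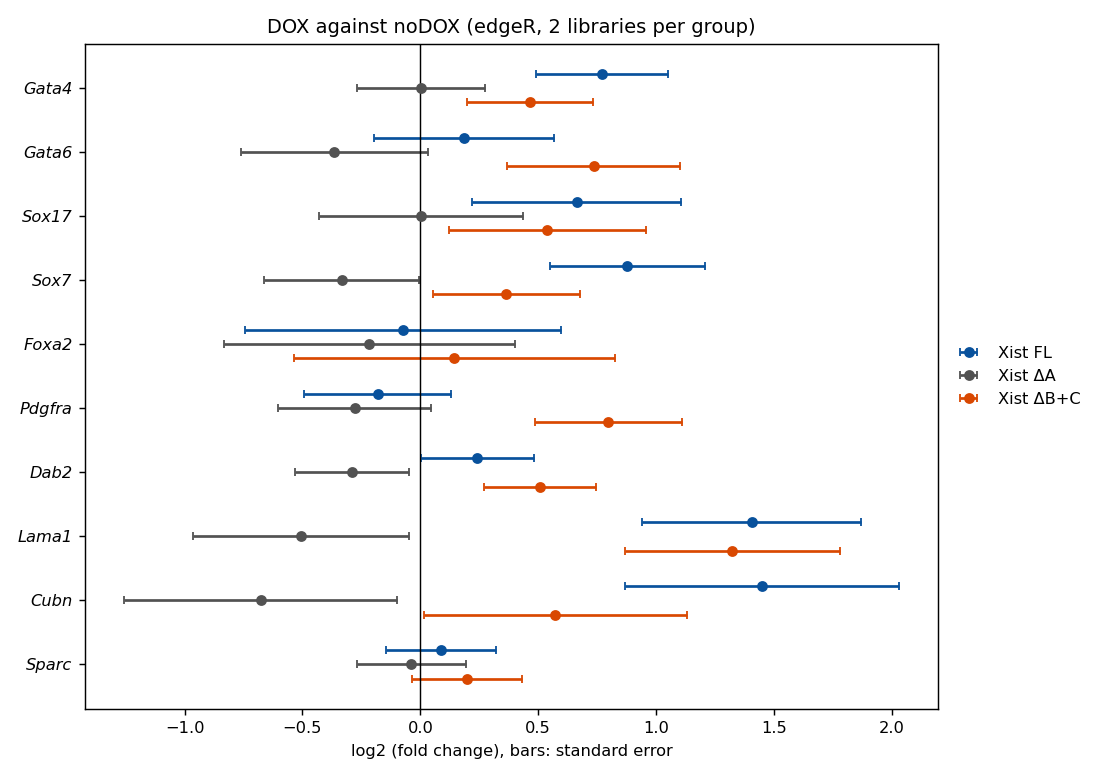
Log2 (fold change) of each gene with DOX against noDOX, 1 colour per line, from edgeR with 2 libraries per group; points are estimates and bars standard errors. The *Xist* ΔB+C points are all above 0 and 8 of the 10 *Xist* ΔA points below it, but no gene passed the adjusted p in any line.

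The responses were then compared between lines as interaction terms. *Xist* ΔA minus *Xist* FL was negative for all 10 genes, and was -1.91 ± 0.65 for *Lama1*, -2.13 ± 0.82 for *Cubn* and -1.21 ± 0.46 for *Sox7* on the log2 scale. None passed edgeR's test, and 0% of all genes did. Of the 10, 3 had an unadjusted p under 0.05, and DESeq2 (1.19% of all genes) and limma-voom (0%) called 0. Without replicate 2 of *Xist* FL DOX these differences were -1.09 for *Lama1* and -0.62 for *Cubn*, and those of *Sox17* and *Foxa2* turned positive (0.11 and 0.19). *Xist* ΔB+C minus *Xist* FL also gave 0 calls among the 10 and 0% among all genes, with 0 at an unadjusted p under 0.05 and 0 by DESeq2 and limma-voom (0% of all genes in each), and for *Lama1* it was -0.08 ± 0.64. That interval is wide, so equal responses are not shown. *Xist* ΔB+C minus *Xist* ΔA was positive for all 10, at 1.83 ± 0.65 for *Lama1*, 1.08 ± 0.45 for *Pdgfra* and 0.80 ± 0.34 for *Dab2*. With the block the ΔA minus FL term called none of the 10 and 3.31% of all genes, and the ΔB+C minus ΔA term called *Dab2* among 9.32%. Without it, the latter gave 0 calls in edgeR against 0.205% of all genes, with 3 of the 10 at an unadjusted p under 0.05 and 0 by DESeq2 (3.01% of all genes) and limma-voom (0.212%). Without the library made from 100 ng, *Lama1* had 2.19, *Pdgfra* 1.28 and *Dab2* 0.98 in that term. These comparisons share libraries and are not independent of each other. The level of *Xist* RNA with DOX also differed between the lines, and its part in these terms was not tested.

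To ask whether the lines differed before induction, their noDOX libraries were compared. *Xist* ΔA against *Xist* FL gave 0 calls among the 10, where 9.84% of all genes passed. Of the 10, 2 had an unadjusted p under 0.05, limma-voom called 0 (9.93% of all genes) and DESeq2 called 2, *Gata4* and *Sparc* (16.4%). *Gata4* averaged 1.98 ± 0.13 CPM (SD, n = 2) in *Xist* FL and 3.95 ± 0.147 in *Xist* ΔA, a log2 (fold change) of 0.97 ± 0.28 (SE, edgeR, adjusted p = 0.0596). *Sparc* averaged 410 ± 128 and 228 ± 32.4 CPM, with -0.86 ± 0.23 (adjusted p = 0.0506 in the same test). With the replicate block both were called by edgeR (adjusted p = 0.0139 for *Gata4* and 0.000138 for *Sparc*), as was *Foxa2* at 1.35 ± 0.46 (adjusted p = 0.0467), among 33.4% of all genes. *Gata4* was thus called higher and *Sparc* lower in *Xist* ΔA with the block, while edgeR without it called neither. The share of the 10 genes called with the block was below the 33.4% of all genes, so the 10 did not stand out in this comparison. Without the block, *Foxa2* had 1.43 ± 0.65 with all libraries (edgeR, adjusted p = 0.20) and 0.26 without replicate 2 of *Xist* ΔA noDOX. That last fit sets replicate 1 of *Xist* ΔA against both *Xist* FL libraries. Between same-numbered noDOX libraries, *Foxa2* read 1.45 CPM in ΔA against 0.776 in FL (replicate 1) and 5.16 against 1.63 (replicate 2).

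*Sparc* is also made by mesenchymal cells, and the fibroblast markers had lower values in the same libraries. All 6 of the 11 fibroblast and mesenchyme genes that passed the filter were negative in *Xist* ΔA against *Xist* FL, with a median of -0.84 and 0 called by edgeR, DESeq2 or limma-voom (3 at an unadjusted p under 0.05), while with the block *Thy1* and *Dcn* were called lower among 33.4% of all genes. Summed over the list, noDOX libraries read 132.5 and 53.0 CPM in *Xist* FL and 54.1 and 40.5 in *Xist* ΔA (replicates 1 and 2). *Postn*, *Lum* and *S100a4* stayed under 1 CPM in all 12 libraries. Their part in the *Sparc* difference was not tested.

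*Xist* ΔB+C against *Xist* FL without DOX gave 0 calls among the 10 and 0.0227% among all genes. Of the 10, 4 had an unadjusted p under 0.05, limma-voom called 0 (0.0303% of all genes) and DESeq2 called 1, *Gata4* (0.493%). The log2 (fold change) was 1.30 ± 0.28 for *Gata4* (edgeR, adjusted p = 0.455) and 1.54 ± 0.44 for *Sox17* (adjusted p = 0.632). *Gata4* averaged 4.87 ± 1.13 CPM (SD, n = 2) in *Xist* ΔB+C, and *Sox17* 5.18 ± 1.56 against 1.78 ± 0.295 in *Xist* FL. *Gata4*, *Sox17*, *Sox7*, *Lama1* and *Cubn*, 5 of the 10, did not overlap between the 2 groups, nor did 35.4% of all genes tested. With the replicate block *Gata4* was called higher (1.30 ± 0.26, edgeR, adjusted p = 0.0406) among 0.993% of all genes, and *Sox17* was not (adjusted p = 0.112). With the block *Gata4* was thus called above *Xist* FL in both mutant lines, in comparisons that share the same 2 *Xist* FL libraries. Without the block edgeR called it in neither line.

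*Xist* ΔB+C against *Xist* ΔA without DOX gave 1 call, *Sparc*, where 6.69% of all genes passed (12.3% in DESeq2 and 6.47% in limma-voom). *Sparc* was higher in *Xist* ΔB+C, at 443 ± 109 against 228 ± 32.4 CPM (SD, n = 2), a log2 (fold change) of 0.98 ± 0.23 (SE, edgeR, adjusted p = 0.0423). The call ended in 8 of the 12 fits that left out 1 library, and the log2 (fold change) then ran from 0.73 without replicate 1 of *Xist* ΔB+C noDOX to 1.19 without replicate 2 (edgeR, adjusted p from 0.0343 to 0.244). With the replicate block *Sparc* was called (adjusted p = 6.33e-05 in edgeR) and so was *Foxa2*, lower in *Xist* ΔB+C at -1.50 ± 0.47 (adjusted p = 0.04), among 27.9% of all genes. Without replicate 2 of *Xist* ΔA noDOX and without the block, *Foxa2* was at -0.49. The other 8 genes ran from 0.12 for *Pdgfra* to 0.79 for *Sox17*, none called.

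**Figure D3:**
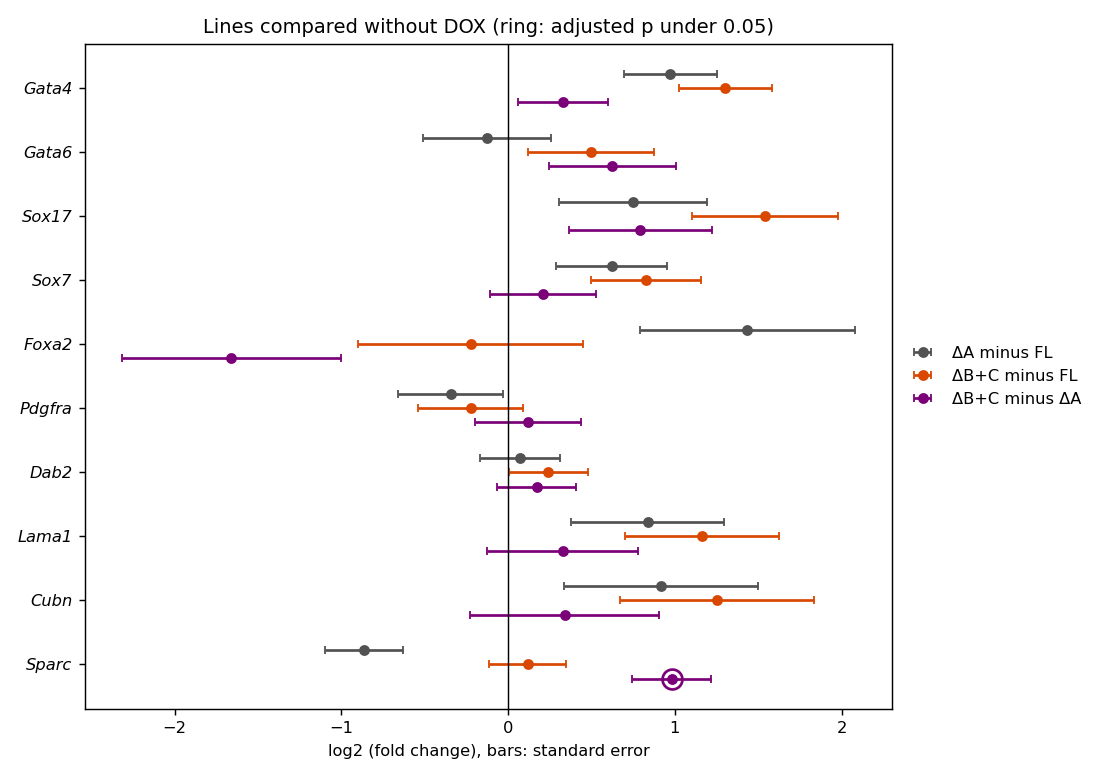
Log2 (fold change) between lines without DOX for each gene, from edgeR with 2 libraries per group; bars are standard errors and a ring marks an adjusted p under 0.05. *Sparc* between *Xist* ΔB+C and *Xist* ΔA carries the only ring, and the *Gata4* points of both mutants against *Xist* FL are at 0.97 and 1.30.

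Across the 6 groups, libraries with the same replicate number deviated together, and this difference reached the primitive endoderm genes. With the number as a term beside the group means, edgeR called 3 of the 10 genes, where 46.3% of all genes passed. *Sparc* was lower in replicate 2 in 6 of 6 groups, by a log2 (fold change) of -0.36 ± 0.06 (SE, edgeR, adjusted p = 0.000639, groups of n = 2). *Dab2* was lower in replicate 2 in 5 of 6 groups (-0.29 ± 0.09, adjusted p = 0.0191), and *Foxa2* was higher in 5 of 6 (0.83 ± 0.28, adjusted p = 0.0341). Leaving out 1 library ended the *Foxa2* call in 8 of 12 fits, with 0.57 left without replicate 2 of *Xist* ΔA noDOX, and the *Dab2* call in 5 of 12. *Cubn* spanned -0.16 to 2.22 between the replicates of a group and *Lama1* -0.88 to 1.35.

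**Figure D4:**
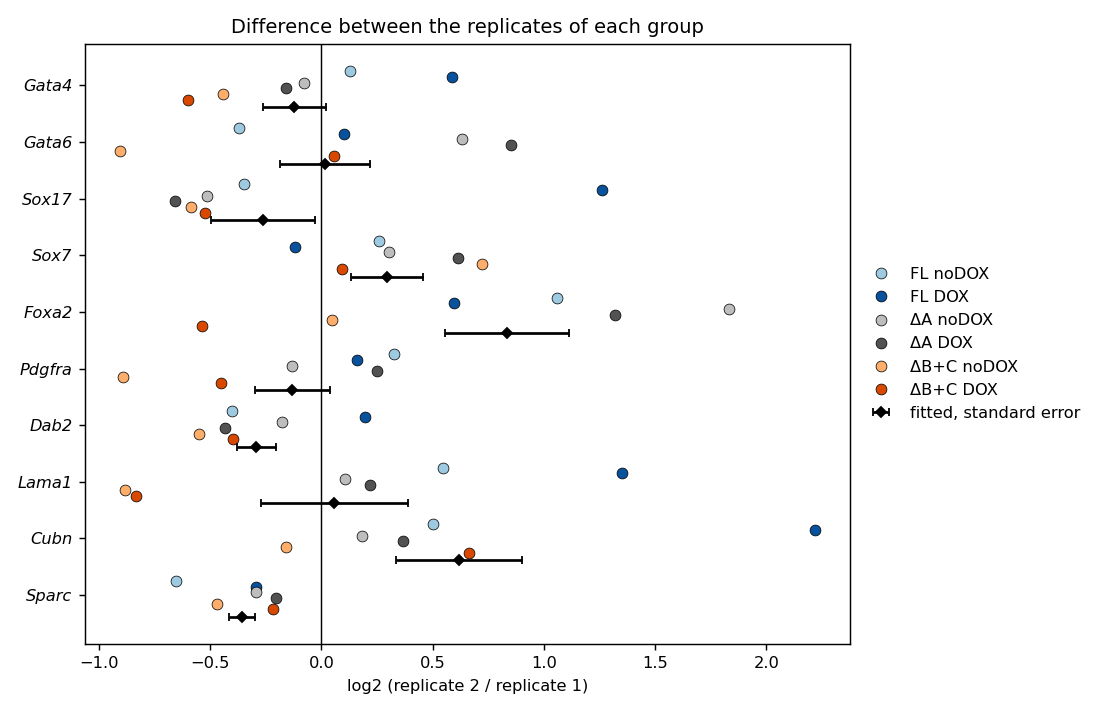
Log2 ratio of replicate 2 to replicate 1 for each gene in the 6 groups (coloured points) with the fitted common difference and its standard error (black). *Sparc* lies below 0 in 6 of 6 groups, while *Lama1* ranges from -0.88 in *Xist* ΔB+C noDOX to 1.35 in *Xist* FL DOX.

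The other genes of the lineage were read from lists of its regulators, matrix and visceral endoderm functions. Among 14 tested regulators and signalling genes, *Hhex*, a homeobox gene of the anterior visceral endoderm, rose with DOX in *Xist* ΔB+C by a log2 (fold change) of 1.26 ± 0.18 (edgeR, adjusted p = 0.0121). It read 3.97 and 3.96 CPM without DOX and 9.08 and 10.4 with DOX. *Fgfr2*, an FGF receptor enriched in primitive endoderm, rose by 1.01 ± 0.19 (adjusted p = 0.0299), from 12.3 and 13.0 to 26.8 and 25.3 CPM. *Fgf5*, a marker of primed epiblast, fell by 1.48 on the log2 scale (SE 0.32, adjusted p = 0.0434). In this comparison 2.94% of all genes passed. Without the library made from 100 ng these values were 1.16 for *Hhex*, 1.04 for *Fgfr2* and -1.32 for *Fgf5*, and the 3 calls ended (edgeR, adjusted p = 0.0838, 0.119 and 0.219, where 0.359% of all genes passed). With the replicate block and without that library, *Hhex* and *Fgfr2* were called (adjusted p = 0.0107 and 0.0278 in edgeR) among 10.2% of all genes. Leaving out each library in turn ended the *Hhex* call in 3 of 12 fits, that of *Fgfr2* in 4 and that of *Fgf5* in 8. None of the 14 passed in *Xist* FL (7 at an unadjusted p under 0.05, 0 by limma-voom, and by DESeq2 3, *Fgf5*, *Fgfr2* and *Hhex*, among 4.21% of all genes) or in *Xist* ΔA (0 at an unadjusted p under 0.05 and 0 by either tool). In *Xist* FL, *Hhex* read 4.36 and 3.84 CPM without DOX and 7.20 and 5.97 with DOX. With the replicate block it was called there (0.67 ± 0.17, edgeR, adjusted p = 0.0251), as was *Fgfr2*, among 13.9% of all genes. *Fgf4*, the ligand that epiblast cells make, had 0.79 ± 0.31 for FL and 0.55 ± 0.31 for ΔB+C, and its receptor gene *Fgfr1* 0.08 ± 0.20 in each, none called. Of 5 tested anterior visceral endoderm genes, 1, *Hhex*, passed in *Xist* ΔB+C, while *Otx2* had -0.33 ± 0.12 and *Lefty1* 0.50 ± 0.44 there. With the block the calls in *Xist* ΔB+C were *Hhex* and *Lefty1*, higher, and *Otx2*, lower, among 21.9% of all genes. Without the library made from 100 ng, *Lefty1* had 0.03 and was not called in either fit, and *Fgf4* had 0.16.

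*Fgfr2* also differed between the lines without DOX. It was higher in *Xist* ΔA than in *Xist* FL by 1.08 ± 0.19 (edgeR, adjusted p = 0.0112), at 23.9 and 30.8 against 14.1 and 11.3 CPM, and lower in *Xist* ΔB+C than in *Xist* ΔA by 1.09 ± 0.19 (adjusted p = 0.0153). The adaptor gene *Grb2*, which couples FGF receptors to RAS, was lower in *Xist* ΔA than in *Xist* FL (-0.35 ± 0.09, edgeR, adjusted p = 0.0471). Between ΔA and FL 9.84% of all genes passed, and between ΔB+C and ΔA 6.69%. Leaving out 1 library ended the *Fgfr2* calls in 2 and 3 of 12 fits and the *Grb2* call in 10.

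Of 21 tested basement membrane and parietal endoderm genes, 19 were positive with DOX in *Xist* ΔB+C, with a median of 0.33 and none called by edgeR (3 at an unadjusted p under 0.05), DESeq2 or limma-voom. With the replicate block 4 were called higher there, *Plod1*, *Plod2*, *Col4a2* and *Plat*, where 21.9% of all genes passed. Without the library made from 100 ng 19 were positive in either fit, with a median of 0.44 without the block and 0.353 with it. Those fits leave 1 library in *Xist* ΔB+C DOX. In *Xist* FL 13 were positive and none was called (1 at an unadjusted p under 0.05), and in *Xist* ΔA 4 were positive and none was called (0). The collagen IV genes *Col4a1* and *Col4a2* had 0.63 ± 0.33 and 0.80 ± 0.37 in *Xist* ΔB+C. *Fn1*, *Hspg2* and *Lama5*, the most abundant of the list, had 0.54 ± 0.39, 0.23 ± 0.29 and 0.07 ± 0.18 there. *P4ha2*, a collagen prolyl hydroxylase gene, was lower in *Xist* ΔA than in *Xist* FL without DOX (-0.51 ± 0.13, edgeR, adjusted p = 0.037), a call that ended in 10 of 12 fits with 1 library left out. *Col4a1* was higher in *Xist* ΔB+C than in *Xist* ΔA without DOX (1.32 ± 0.33, edgeR, adjusted p = 0.0495), at 114 and 70.4 against 40.4 and 34.7 CPM, in the same direction as *Sparc*, a call that likewise ended in 10 of 12. Between replicate numbers, 11 of the 21 were called lower in replicate 2 and 2 higher, where 46.3% of all genes passed in either direction. The keratin genes *Krt8* and *Krt18* had -1.95 ± 0.38 and -1.63 ± 0.27 in that comparison of replicate 2 with 1 (edgeR, adjusted p = 0.00845 and 0.0041).

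Of 12 tested visceral endoderm and endocytosis genes, none passed with DOX in any line (at an unadjusted p under 0.05, the FL line had 2, ΔA 0 and ΔB+C 2), nor by DESeq2 or limma-voom. With the block *Apoe* and *Soat2* were called higher in *Xist* ΔB+C (21.9% of all genes passed) and *Trf* in *Xist* FL (13.9%), while *Clcn5*, which is X-linked and so lies on the chromosome that *Xist* RNA coats, was called lower in both. Without the library made from 100 ng none of the 12 was called with the block in *Xist* ΔB+C. *Lrp2*, the gene of megalin, which partners cubilin, read 161 to 313 CPM and its DOX response was 0.16 ± 0.23 for *Xist* ΔB+C, 0.06 ± 0.23 for FL and -0.20 ± 0.23 for ΔA. The lipoprotein gene *Apoe* had 0.54 ± 0.19 in *Xist* ΔB+C (edgeR, adjusted p = 0.165) and 0.53 ± 0.19 in *Xist* FL (adjusted p = 0.256). The protease gene *Ctsl* stayed between -0.08 and 0.09 in the 3 lines.

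Genes of neighbouring lineages differed in the same comparisons. *Eomes*, a T-box gene of mesendoderm and definitive endoderm, fell with DOX by 1.59 on the log2 scale in *Xist* FL (SE 0.30, edgeR, adjusted p = 0.0427, 1.24% of all genes passing) and by 1.38 in *Xist* ΔB+C (SE 0.29, adjusted p = 0.0431, 2.94% passing). Without the library made from 100 ng and without the replicate block the latter was -1.03, with 1 library left in *Xist* ΔB+C DOX. In fits without the block, leaving out 1 library ended these calls in 8 and 9 of 12. Of 12 epiblast genes, 10 were positive with DOX for FL and 10 for ΔB+C, none called by edgeR (1 at an unadjusted p under 0.05 in each), while with the block 2 were called higher in each, where 13.9% and 21.9% of all genes passed. Without the library made from 100 ng, 7 of the 12 were positive for ΔB+C without the block (median 0.283). With the block and without that library, 10 were positive (median 0.645). In *Xist* ΔA against *Xist* FL without DOX, *Mixl1*, *Eomes* and *Fgf8* were lower, with log2 (fold change) values of -3.54, -1.28 and -3.72 (edgeR, adjusted p = 0.0351, 0.0279 and 0.0273). These calls ended in 6, 4 and 4 of 12 fits with 1 library left out. The mesendoderm sum in replicates 1 and 2 was 346 and 242 CPM in *Xist* FL noDOX and 84.8 and 58.5 in *Xist* ΔA noDOX. *Sox17* and *Foxa2* are also genes of definitive endoderm, and the part of these cells in their levels was not tested. None of 6 trophoblast, 2 cardiac and 4 neuroectoderm genes passed with DOX in any line by edgeR, DESeq2 or limma-voom, and at an unadjusted p under 0.05 there was 1 neuroectoderm gene for FL and 1 for ΔB+C. With the block *Pax6* and *Sox1* were called higher in *Xist* FL, among 13.9% of all genes. *Krt7* was called higher and *Zic1* lower in *Xist* ΔB+C, among 21.9%, in a fit that includes the library made from 100 ng. In replicate 1 of *Xist* ΔB+C, *Krt7* read 3.62 CPM without DOX and 5.46 with DOX, and *Zic1* 2.00 and 0.898.

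Over the 12 libraries the genes varied together to different degrees. *Lama1* followed the mean of the other 9 most closely (Pearson r = 0.962 over 12 libraries, log2 scale), then *Gata6* (0.848), *Sox17* (0.814), *Dab2* (0.806), *Gata4* (0.787), *Cubn* (0.766), *Pdgfra* (0.679) and *Sox7* (0.631). *Sparc* had 0.434 and *Foxa2* -0.333. The mean z-score of the 10 was highest in *Xist* ΔB+C DOX, at 1.44 and 0.977, followed by replicate 1 of *Xist* ΔB+C noDOX at 0.57. These points share lines, treatments and replicate numbers, so the values describe these libraries only. The 10 genes outside the set that followed its mean most closely were *Slc25a42* (r = 0.947), *Lmtk2* (0.935), *Asap3* (0.93), *Gtf3c1*, *Wdr91*, *Tctn1*, *St5*, *Mtus1*, *N4bp1* and *Cit* (0.902), over the same 12 libraries.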

How the data were processed

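RNA-seq libraries were aligned by the authors to mm10 with TopHat2 (2.1.0) and read pairs were assigned to refFlat genes with featureCounts (1.5.1), per the submitters' processing notes and the study's methods. The deposited values are raw counts per gene, 1 table for each of the 12 libraries. CPM were computed from the deposited totals. A gene was tested when 6 or more libraries reached 1 CPM, in 1 fit of 6 group means by edgeR (4.0.16) quasi-likelihood with TMM factors (0.978 to 1.02) from autosomal genes, R 4.3.3. P-values were adjusted by Benjamini–Hochberg over all 13191 genes, with a threshold of 0.05. Scripts were tested on simulated counts. DESeq2 (1.42.0) and limma-voom (3.58.1) were alternatives. No 2 libraries held identical counts.

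Same-numbered libraries deviated together: over 12721 autosomal genes the replicate differences of 2 groups correlated at 0.399 to 0.82 in 15 pairs of groups (mean 0.625). The numbers, which the labels give, therefore pair the libraries, and the fit with a replicate block (residual degrees of freedom 5 in place of 6) is given beside each call that it changed. The biological coefficient of variation was 0.173 without the block and 0.088 with it.

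The members and lists were chosen with earlier results of these data known. All 10 members were named. From each endoderm list, genes past the threshold for treatment or line were named, or else those with the highest mean CPM, while other listed genes (*Col4a2*, *Krt8*, *Krt18* and those called with the block among them) were added after their values were seen. Gene positions and exon lengths came from GENCODE vM21 and promoter windows from RefSeq. The limits at 3 counts cover counting error only.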

Additional observations from a re-analysis of the deposited data

Results flagged for a closer look

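For 1 of the 10 genes, a difference between lines in the response to DOX passed a test of that difference, in the fit with the replicate block. That share is close to the 9.32% of all genes that passed, so the 10 genes did not stand out in this test. With the replicate block, the DOX response of *Dab2*, the endocytic adaptor, was higher in *Xist* ΔB+C than in *Xist* ΔA by 0.81 ± 0.22 on the log2 scale (SE, edgeR's quasi-likelihood test, adjusted p = 0.0393, groups of n = 2), where 9.32% of all genes passed. In the same fit its response was 0.51 ± 0.15 for ΔB+C and -0.30 ± 0.16 for ΔA, each in the same direction in both same-numbered pairs. Without the block the difference was 0.80 ± 0.34 (adjusted p = 0.391), and without the library made from 100 ng it was 0.87 ± 0.25 with the block (adjusted p = 0.0768). The low-input library is 1 of the 2 behind the *Xist* ΔB+C DOX value, and the part of RNA input in it was not tested.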

How the results depend on the processing

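With 2 libraries per group and most of the 10 genes at a few CPM, few differences passed, and a missed threshold does not show that levels were equal. Of 1971 alternative values of the 10 genes in 10 comparisons, 1829 kept direction and side of the threshold, 85 changed sign (none of them a called value), 27 lost a call and 30 gained one. The cause was not tested.

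Counts of the 10 genes past the threshold moved as follows. DESeq2 called 1 for DOX in *Xist* FL, 1 for DOX in *Xist* ΔB+C, 2 for *Xist* ΔA against *Xist* FL and 1 for *Xist* ΔB+C against *Xist* FL, among 4.21%, 8.44%, 16.4% and 0.493% of all genes. The replicate block called 1 for DOX in *Xist* ΔB+C, 3 for *Xist* ΔA against *Xist* FL, 1 for *Xist* ΔB+C against *Xist* FL, 2 for *Xist* ΔB+C against *Xist* ΔA and 1 for the response of *Xist* ΔB+C minus *Xist* ΔA, and changed no other count. In that order, 21.9%, 33.4%, 0.993%, 27.9% and 9.32% of all genes passed. Without the low-input library the block, chosen after seeing the data, called the same genes in the 3 comparisons of lines as with all libraries. The *Dab2* calls ended, as given above. Shares of all genes for that fit between lines are not given, so it is not read as a result about the 10. For *Xist* ΔA against *Xist* FL, TMM over all genes called 1 and averaging both treatments 1 (*Sparc* in each). The main fit passed 9.84% of all genes in that comparison, and the shares in those other settings are not given. For *Xist* ΔB+C against *Xist* ΔA the call was 0 with no filter and 0 in the libraries of those groups alone, and averaging both treatments called 6 (*Gata6*, *Sox17*, *Foxa2*, *Dab2*, *Lama1*, *Sparc*) among 25.5% of all genes. For replicate 2 against 1, a fit with no group means called 0. Leaving out 1 library changed the count for *Xist* ΔA against *Xist* FL, for *Xist* ΔB+C against *Xist* ΔA and for replicate 2 against 1. It changed the count in no other comparison.

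Signs changed in 14 other values, all log2. With limma-voom these were DOX in *Xist* FL for *Foxa2* (0.0070), DOX in *Xist* ΔA for *Sox17* (-0.0086), the response of *Xist* ΔB+C minus *Xist* FL for *Sox17* (0.0021) and *Lama1* (0.027), and replicate 2 against 1 for *Lama1* (-0.022). With library totals alone they were *Gata4* (-0.038) and *Sox17* (-0.037) for DOX in *Xist* ΔA. Averaging both treatments gave -0.19 for *Dab2*, -0.12 for *Lama1* and -0.15 for *Cubn* in *Xist* ΔA against *Xist* FL and 0.26 for *Pdgfra* in *Xist* ΔB+C against *Xist* FL. With no group means, replicate 2 against 1 gave -0.15 for *Lama1* and -0.025 for *Gata6*. With the block and without the low-input library, *Lama1* gave 0.39 for the response of *Xist* ΔB+C minus *Xist* FL. Leaving out 1 library turned the sign of 35 gene comparisons. For DOX in *Xist* FL the range was -0.11 to 1.16 for *Sox17*, -0.52 to 0.54 for *Foxa2*, -0.054 to 2.16 for *Cubn* and -0.20 to 0.45 for *Sparc*. For DOX in *Xist* ΔA the range was -0.080 to 0.084 for *Gata4*, -0.83 to 0.011 for *Gata6*, -0.37 to 0.29 for *Sox17*, -1.01 to 0.96 for *Foxa2* and -0.18 to 0.12 for *Sparc*. For DOX in *Xist* ΔB+C the range was -0.16 to 0.38 for *Foxa2* and -0.021 to 0.45 for *Sparc*. For *Xist* ΔA against *Xist* FL the range was -0.47 to 0.16 for *Gata6* and -0.11 to 0.29 for *Dab2*. For *Xist* ΔB+C against *Xist* FL the range was -0.029 to 0.87 for *Gata6*, -0.67 to 0.39 for *Foxa2*, -0.74 to 0.15 for *Pdgfra*, -0.059 to 0.49 for *Dab2* and -0.17 to 0.48 for *Sparc*. For *Xist* ΔB+C against *Xist* ΔA the range was -0.40 to 0.49 for *Pdgfra*, -0.13 to 0.42 for *Dab2* and -0.18 to 0.70 for *Lama1*. For the response of *Xist* ΔA minus *Xist* FL the range was -1.15 to 0.11 for *Sox17*, -0.93 to 1.03 for *Foxa2*, -0.27 to 0.060 for *Pdgfra* and -0.49 to 0.16 for *Sparc*. For that of *Xist* ΔB+C minus *Xist* FL the range was -0.64 to 0.019 for *Gata4*, -0.62 to 0.65 for *Sox17*, -0.40 to 0.67 for *Foxa2*, -0.60 to 0.74 for *Lama1*, -1.59 to 0.63 for *Cubn* and -0.25 to 0.40 for *Sparc*. For that of *Xist* ΔB+C minus *Xist* ΔA the range was -0.81 to 1.15 for *Foxa2*. For replicate 2 against 1 the range was -0.11 to 0.21 for *Gata6*, -0.23 to 0.012 for *Pdgfra* and -0.21 to 0.27 for *Lama1*.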
